A study of Mus musculus with 18 samples.

Results

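Acute-phase and complement transcripts other than those of serum amyloid A were followed in mouse liver through 6 genes: Orm1, Apcs, C3, C4, C4bp and Alb. They were taken by name from the Steroltalk v2 array, a spotted cDNA array centred on sterol metabolism, on which they made up 6 of 289 gene probes. Each gene had 1 probe, printed as 3 spots, and all 6 probes were above background on all 18 arrays. Albumin is listed under its older symbol Alb1, which RefSeq gives as a synonym of Alb. The name C4 can stand for C4a or C4b and was kept as written, and cDNA of the near-identical neighbours Orm2 and Orm3 may also bind the Orm1 probe.

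All 18 mice were female C57BL/6 animals of 16 weeks on a diet with 1% cholesterol for a week before dosing, so that no group without the diet was measured here. A group of 6 received 40 mg/kg atorvastatin and another 6 received 20 mg/kg rosuvastatin, each as a single oral dose, and 6 vehicle mice received tap water. Livers were taken 24 h later, and RNA of the left lateral lobe of each mouse was labelled with Cy3 and hybridised against a Cy5-labelled mix of all the samples. Dyes were never swapped, and each array stands for 1 mouse.

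The acute-phase response is the change in plasma protein output with which hepatocytes answer injury and infection, driven mainly by interleukin 6 through STAT3 and by interleukin 1 through NF-kB and C/EBP factors. Orm1 (orosomucoid, a drug-binding plasma protein) and Apcs (serum amyloid P, the pentraxin that serves as an acute-phase protein in mice) belong to its induced arm, and complement components C3 and C4 are made largely by the same cells. C4bp is a plasma inhibitor of the complement cascade that binds C4b, and Alb, the most abundant plasma protein, is the classical negative acute-phase gene.

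The stretch before the transcription start is shown for the members found in the RefSeq promoter table (build GRCm38.p6), 4 of the 6. This sets Apcs of the induced arm and the complement genes C3 and C4bp beside Alb of the negative arm. Each window holds the 250 bases before the start, 5′ to 3′ on the gene's strand, and capitals mark matches on either strand to 3 motifs: CTGGGAA (an acute-phase element read by STAT3), TTNNGNAAT (a C/EBP type) and GTTAATNAT (an HNF1 type).
Apcs, chr1:172895055-172895304, minus strand: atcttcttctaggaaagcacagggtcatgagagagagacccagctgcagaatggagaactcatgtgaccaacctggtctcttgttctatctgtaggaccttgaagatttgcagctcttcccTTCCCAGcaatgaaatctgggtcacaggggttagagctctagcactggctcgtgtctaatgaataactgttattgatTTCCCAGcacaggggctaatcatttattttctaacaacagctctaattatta
C3, chr17:57228137-57228386, minus strand: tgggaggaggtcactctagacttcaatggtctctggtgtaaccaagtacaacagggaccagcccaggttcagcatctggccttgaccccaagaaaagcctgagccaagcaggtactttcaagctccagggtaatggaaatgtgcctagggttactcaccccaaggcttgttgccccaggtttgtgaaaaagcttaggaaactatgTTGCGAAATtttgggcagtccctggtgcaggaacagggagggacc
C4bp, chr1:130661619-130661868, minus strand: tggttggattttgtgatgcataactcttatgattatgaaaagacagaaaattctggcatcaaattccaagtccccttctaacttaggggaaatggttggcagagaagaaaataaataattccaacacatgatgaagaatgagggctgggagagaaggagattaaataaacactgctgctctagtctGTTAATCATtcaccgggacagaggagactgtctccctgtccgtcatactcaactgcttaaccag
Alb, chr5:90460620-90460869, plus strand: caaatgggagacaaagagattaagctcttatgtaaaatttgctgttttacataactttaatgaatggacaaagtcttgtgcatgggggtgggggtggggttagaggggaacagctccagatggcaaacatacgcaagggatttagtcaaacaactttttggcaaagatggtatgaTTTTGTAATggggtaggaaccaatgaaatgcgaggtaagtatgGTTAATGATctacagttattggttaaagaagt
The STAT3-type letters occurred in the Apcs window at 2 places and in none of the other 3 windows, and 9.1% of 32851 promoters of this length hold them. C3 and Alb each held 1 C/EBP-type match, a motif found in 10.2% of promoters. C4bp and Alb each held 1 HNF1-type match, found in 0.737% of promoters; HNF1 is a factor that maintains liver-specific expression. These matches are letters only and were not tested for binding, and no 2 of the motif matches overlapped.

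Between 155 and 218 gene probes were above background per array, and 188 probes passed the filter used for testing. Hepatocyte markers were read beside the liver label: 8 of 9 listed genes, Alb among them, were on the array and all 8 were above background on every array. So were 144 of the 188 kept probes, so that this is a weak check of the label. Of the listed markers of macrophages (10), neutrophils (5), lymphocytes (3) and stellate cells (4), 0 were on the array, so that the share of such cells in a lobe was not tested. Of 4 endothelial and adhesion markers 2 were on the array, and of 4 adipocyte markers 3. In each of these lists 1 passed the filter and 0 were above background on all 18 arrays. In a liver extract, fewer cells of a type and less RNA per cell cannot be told apart. The array of atorvastatin mouse 4 correlated with the others at a median r of -0.46, where the other arrays except vehicle mouse 5 (0.25) lay at 0.64 or above. With Saa1, Saa2 and Saa3 left out, these medians were 0.013 for atorvastatin mouse 4 and -0.077 for vehicle mouse 5, and between 0.16 and 0.47 for the other arrays.

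Brightness set the limit for 3 of the members. The reference channel reached the scanner's ceiling of 65535 in at least 1 spot on 18 arrays for Alb, on 11 for Orm1 and on 10 for C3, and on 0 arrays for Apcs, C4 and C4bp. For Alb all 3 reference spots were saturated on every array, so that its true reference level is unknown. Saturated arrays occurred in every group: Orm1 had them on 3 atorvastatin, 4 rosuvastatin and 4 vehicle arrays, and C3 on 3 atorvastatin, 4 rosuvastatin and 3 vehicle arrays. The mouse RNA itself was saturated only for Alb, on the arrays of rosuvastatin mouse 2 and vehicle mouse 5.

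**Figure D1:**
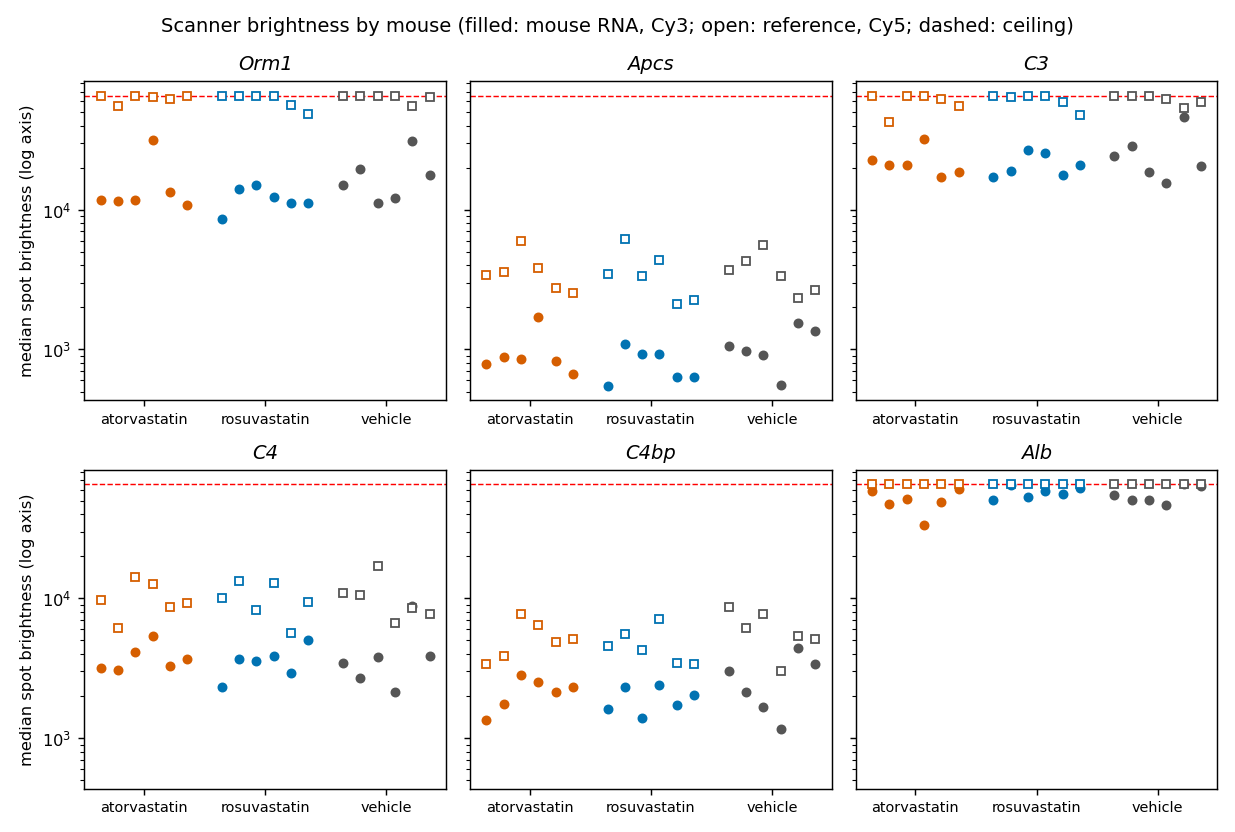
Median spot brightness of each gene on each of the 18 arrays, on a log axis, for the mouse RNA (filled circles) and the reference (open squares), with the 6 mice of each group side by side; the dashed line is the ceiling of 65535. Reference spots of Alb sit on the ceiling in all mice, those of Orm1 and C3 lie at or just under it, and Apcs, C4 and C4bp stay well below.

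Orm1 was the most variable of the 6 genes. Its mouse RNA gave median spot brightness between 8568 and 31620, against 48597 to 65535 in the reference. The log2 ratio of mouse over reference was -1.65 at the lowest, -1.06 at the median and 0.26 at the highest in the atorvastatin mice, -1.43, -1.23 and -0.63 in the rosuvastatin mice, and -1.40, -0.80 and -0.30 in the vehicle mice. The groups overlapped, and 17 of 18 mice lay below the reference, the exception being atorvastatin mouse 4 at 0.26. Group means were -0.91 ± 0.63 with atorvastatin, -1.17 ± 0.31 with rosuvastatin and -0.81 ± 0.37 with vehicle (SD, n = 6 each). Without mouse 4, the atorvastatin mean was -1.15 ± 0.29 (SD, n = 5).

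Apcs had a range close to that of Orm1, and its reference was never saturated. Its mouse RNA gave between 551 and 1702 units and the reference between 2126 and 6139. Log2 ratios had a lowest value of -1.36, a median of -0.99 and a highest of 0.36 in the atorvastatin mice, -1.39, -1.15 and -0.63 in the rosuvastatin mice, and -1.38, -0.59 and -0.31 in the vehicle mice. Atorvastatin mouse 4 again stood alone above the reference, and the groups overlapped. The means were -0.79 ± 0.62 with atorvastatin, -1.09 ± 0.26 with rosuvastatin and -0.72 ± 0.37 with vehicle (SD, n = 6 each), and -1.02 ± 0.29 with atorvastatin when mouse 4 was left out (n = 5).

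C3, the component on which all complement pathways converge, varied less. Its log2 ratios ran through a lowest value of -0.61, a median of -0.15 and a highest of 0.20 in the atorvastatin mice, -0.83, -0.45 and 0.22 in the rosuvastatin mice, and -1.05, -0.13 and 0.23 in the vehicle mice. Each group held mice on both sides of the reference. Means were -0.14 ± 0.31 with atorvastatin, -0.36 ± 0.38 with rosuvastatin and -0.26 ± 0.47 with vehicle (SD, n = 6 each).

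C4, which is cleaved to C4b on activation of the classical and lectin pathways, covered a narrower range. The lowest, median and highest log2 ratios were -0.44, -0.23 and 0.35 in the atorvastatin mice, -0.65, -0.35 and 0.07 in the rosuvastatin mice, and -0.62, -0.31 and 0.15 in the vehicle mice. Atorvastatin mouse 4 was the highest of the 18 and vehicle mouse 5 the next. C4 averaged -0.14 ± 0.31 with atorvastatin, -0.34 ± 0.25 with rosuvastatin and -0.29 ± 0.25 with vehicle (SD, n = 6 each).

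C4bp was the steadiest member. Its log2 ratios were -0.21, 0.00 and 0.21 (lowest, median and highest) in the atorvastatin mice, -0.36, -0.20 and 0.03 in the rosuvastatin mice, and -0.24, -0.09 and 0.14 in the vehicle mice. The groups overlapped, although the 3 lowest mice were all rosuvastatin mice. The means were -0.01 ± 0.14 with atorvastatin, -0.19 ± 0.14 with rosuvastatin and -0.07 ± 0.16 with vehicle (SD, n = 6 each).

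Alb ratios were positive in all 18 mice, but against a reference at the ceiling, so that they do not place Alb above the reference. The calculated log2 ratio was 0.31 at the lowest, 0.85 at the median and 1.25 at the highest with atorvastatin, 0.63, 1.11 and 1.22 with rosuvastatin, and 0.26, 0.97 and 1.13 with vehicle. The 2 lowest mice were vehicle mouse 5 and atorvastatin mouse 4, and the groups overlapped. Means were 0.83 ± 0.31 with atorvastatin, 1.00 ± 0.25 with rosuvastatin and 0.81 ± 0.37 with vehicle (SD, n = 6 each).

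**Figure D2:**
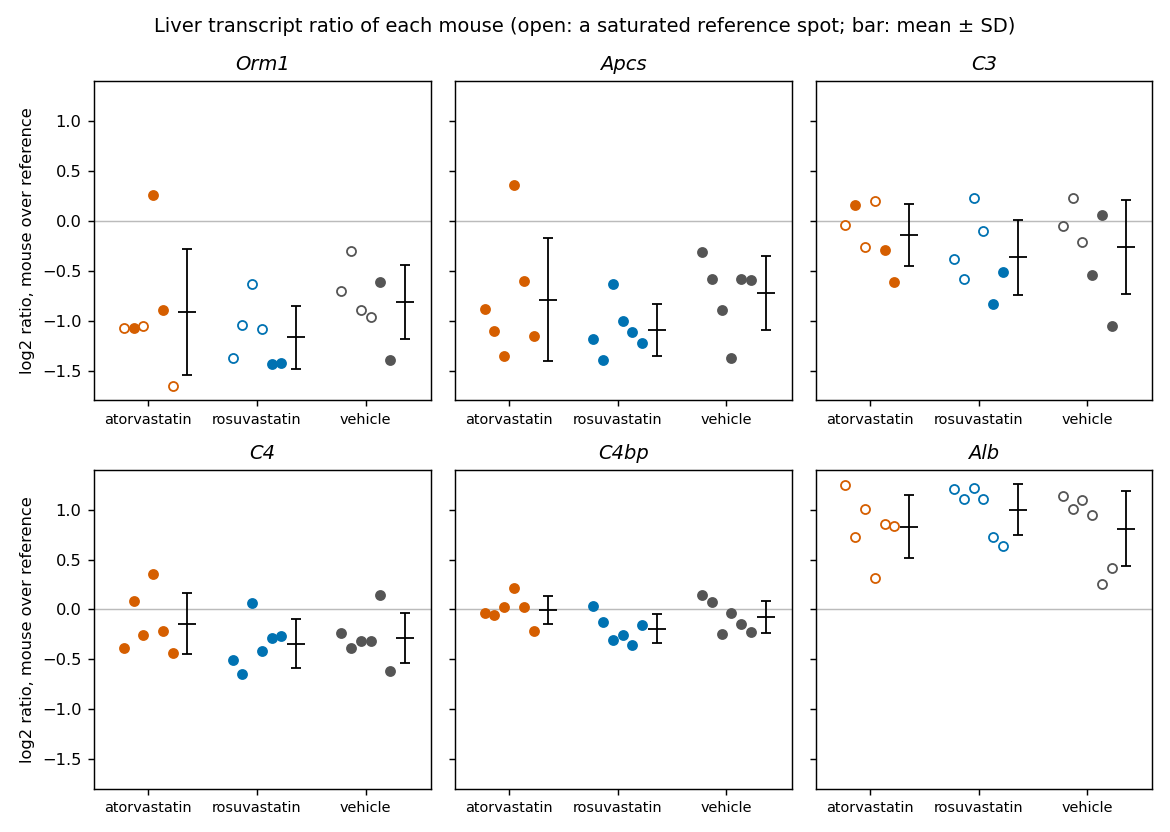
Log2 ratio of mouse over reference for each of the 6 genes, 1 point per mouse in the order of the replicate numbers, with atorvastatin, rosuvastatin and vehicle mice from left to right; open points had at least 1 saturated reference spot, and bars give mean ± SD (n = 6). Atorvastatin mouse 4 is the only mouse above 0 for Orm1 (0.26) and Apcs (0.36), and the groups overlap for all 6 genes.

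The spread between mice was set against that between the 3 spots of a probe on an array. The SD between mice within groups was 0.46 for Orm1, 0.44 for Apcs, 0.39 for C3, 0.32 for Alb and 0.27 for C4, and the SD between spots was 0.060 for Orm1, 0.065 for Apcs, 0.11 for C3, 0.041 for Alb and 0.096 for C4. For C4bp the SD was 0.146 between mice and 0.143 between spots. A mouse's value is the mean of 3 spots, so that these SDs are not on the same footing and are given as a description. Over the 188 probes the median SD between mice was 0.197, and by range over the 18 mice Orm1 ranked 18, Apcs 23, C3 47, C4 61, Alb 63 and C4bp 141. The range was 3.76-fold for Orm1, 3.37-fold for Apcs, 2.43-fold for C3, 2.0-fold for C4, 1.98-fold for Alb and 1.48-fold for C4bp.

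The first comparison asked whether atorvastatin changed these transcripts relative to vehicle. Of the 6 members, 0 passed an adjusted p of 0.05 in limma's test, and 0 passed an unadjusted p of 0.05. Over all 188 probes 0 passed the adjusted threshold (0%) and 16 (8.51%) the unadjusted one. Differences are log2 fold changes with limma's standard error. Orm1 differed by -0.10 ± 0.25 and Apcs by -0.07 ± 0.24 (adjusted p = 0.938 and 0.961 in limma). C3 differed by 0.12 ± 0.21, C4 by 0.14 ± 0.15 and C4bp by 0.07 ± 0.09. For Alb the difference was 0.02 ± 0.17. Over the 6 members the median was 0.04, beside -0.01 over the 188 probes, and 4 of 6 were above 0, against 45.7% of all probes. The 95% interval of Orm1 reached from 0.647-fold to 1.34-fold of vehicle, and that of C4bp from 0.922-fold to 1.19-fold. The difference of Orm1 was -0.34 and that of Apcs -0.30 when atorvastatin mouse 4 was left out. With saturated spots left out, Orm1 took the opposite sign (0.17) and C3 differed by 0.36. That setting removed all spots of Orm1 on 10 arrays and of C3 on 6, so that its values for these genes compare fewer than 6 mice per group.

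Rosuvastatin was compared with vehicle in the same way. Again 0 of 6 members passed the adjusted threshold and 0 the unadjusted one, against 0% and 12 (6.38%) of the 188 probes. Apcs had the largest difference among the members, -0.37 ± 0.24 (0.774-fold, 95% interval 0.545 to 1.1, adjusted p = 0.79 in limma), and Orm1 followed at -0.35 ± 0.25 (0.782-fold, 95% interval 0.543 to 1.13). Of the 6 rosuvastatin mice, 5 lay below the vehicle mean for Orm1, Apcs and C4bp, 4 for C3 and 3 for C4, and 4 lay above it for Alb. Orm1 also had 5 of 6 atorvastatin mice below the vehicle mean, and Apcs 4. For C3, C4 and Alb 4 atorvastatin mice lay above it, and 5 for C4bp. Such counts were not made over all probes. C3 differed by -0.10 ± 0.21, C4 by -0.06 ± 0.15 and C4bp by -0.12 ± 0.09. Alb was the only member with a positive difference, 0.19 ± 0.17. Across the 6 members the median difference was -0.11, beside -0.01 over the 188 probes, and 1 of 6 was above 0, against 48.4% of all probes. With the sample channel read alone, Apcs differed by -0.09, Orm1 by -0.19, C3 by 0.09, C4 by 0.13 and Alb by 0.37, and none passed the test. In the deposited value table, which holds Orm1 for only 8 mice, Orm1 differed by -0.87.

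Atorvastatin was set against rosuvastatin directly, although the doses of 40 and 20 mg/kg differed, so that the compound and its dose cannot be told apart. C4bp, at 0.18 ± 0.09 (1.14-fold, 95% interval 1.0 to 1.29), had an unadjusted p of 0.049 and an adjusted p of 0.653 in limma. It was the 1 of 6 members with an unadjusted p under 0.05, beside 5.32% of all probes, and 0 members passed the adjusted threshold (0% of all probes). Groups that did not overlap were found for 0 members and for 0.532% of all probes. The exact permutation test over the 12 mice gave C4bp p = 0.0498, unadjusted and two-sided. The difference of C4bp was 0.07 within the 11 arrays read with the same background ring. The other differences were 0.30 ± 0.24 for Apcs, 0.25 ± 0.25 for Orm1, 0.22 ± 0.21 for C3, 0.20 ± 0.15 for C4 and -0.17 ± 0.17 for Alb. The median of the 6 was 0.21, beside 0.01 over the 188 probes, and 5 of 6 were above 0, against 52.1% of all probes. Without atorvastatin mouse 4 the value of Orm1 was 0.02, that of Apcs 0.07 and that of C4 0.10. With saturated spots left out, which removed Orm1 on 10 arrays, Orm1 differed by 0.60. In the deposited value table, which holds Orm1 for only 8 mice, it differed by 0.70. With the sample channel alone C3 differed by -0.07 at a common 75th percentile and C4bp by 0.05 after quantile normalisation, and neither passed the test.

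**Figure D3:**
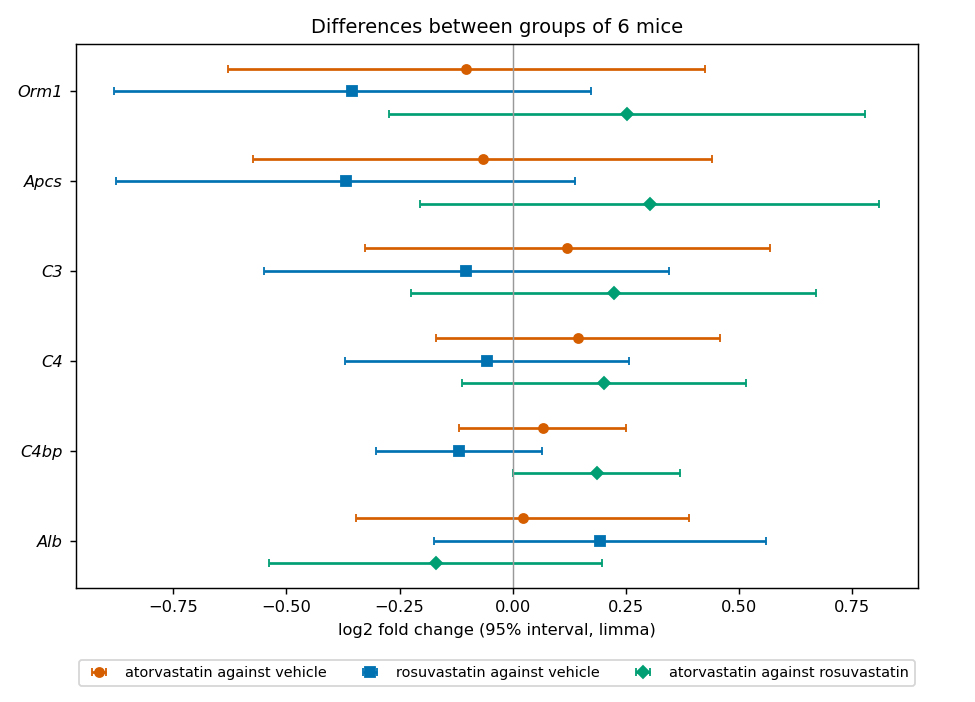
Log2 fold change of each gene with its 95% interval from limma, in atorvastatin against vehicle (circles), rosuvastatin against vehicle (squares) and atorvastatin against rosuvastatin (diamonds), 6 mice per group. All intervals span 0 but that of C4bp in atorvastatin against rosuvastatin, whose adjusted p was 0.653; Apcs and Orm1 have the widest intervals.

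In order of group means, Orm1 and Apcs were highest with vehicle, then atorvastatin, then rosuvastatin. C3, C4 and C4bp were highest with atorvastatin, then vehicle, then rosuvastatin, and Alb was highest with rosuvastatin, then atorvastatin, then vehicle. Neighbours in these orders lay between 0.02 and 0.30 apart, and no pair of groups differed at an adjusted p of 0.05 for any member. The orders are not independent, since the statin comparisons share the vehicle mice and all the genes were read on the same arrays.

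Whether the members varied together from mouse to mouse was asked over all 18 mice, through 21 relations: the 15 pairs of members and each member against the mean log2 ratio of Saa1, Saa2 and Saa3, the serum amyloid A genes that are among the most strongly induced in the acute phase. That mean ran from -5.53 to 1.72, with atorvastatin mouse 4 at the top, followed by vehicle mice 5 (-1.43) and 2 (-2.35) and atorvastatin mouse 5 (-2.95). All arrays share 1 reference, which was saturated on 4 arrays for Saa1 and on 5 for Saa2. P-values are from permutation tests, two-sided, with Benjamini-Hochberg adjustment over the 21 relations.

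Orm1 followed serum amyloid A, with Pearson's r = 0.875 (permutation p = 2e-05, adjusted p = 0.00042) and Spearman's rho = 0.715 (permutation p = 0.00147, adjusted p = 0.0154). Without the 2 mice farthest from the median of serum amyloid A, atorvastatin 4 and vehicle 5, r was 0.765 (adjusted p = 0.00714). As deviations from group means r was 0.87, within the 11 arrays of the same background ring it was 0.856 (permutation p = 0.0011, adjusted p = 0.0231), and with the sample channel alone, where the saturated reference has no part, it was 0.916. Apcs gave r = 0.835 (permutation p = 0.00015, adjusted p = 0.00157) and rho = 0.635 (permutation p = 0.00589, adjusted p = 0.0337). The same 2 mice left out, r of Apcs was 0.655 (adjusted p = 0.028). Its r was 0.725 within the 11 arrays (adjusted p = 0.065) and 0.7 with the sample channel alone (adjusted p = 0.0151).

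The complement genes were set against serum amyloid A in the same way, and differences between correlations were not tested. C4 had r = 0.755 (permutation p = 0.00057, adjusted p = 0.00239) and rho = 0.624 (permutation p = 0.00641, adjusted p = 0.0337). Its r was 0.424 without the 2 mice (adjusted p = 0.258), so that the size of this r depends on them. C3 had r = 0.591 (permutation p = 0.00798, adjusted p = 0.0209) and rho = 0.604 (permutation p = 0.00956, adjusted p = 0.0341), and r was similar without those mice at 0.579 while its adjusted p was 0.0661. By rho the 2 genes were alike without those mice, at 0.465 for C4 and 0.479 for C3 (adjusted permutation p = 0.17 for both). Within the 11 arrays r was 0.751 for C3 and 0.607 for C4 (adjusted p = 0.0582 and 0.127). For C4bp r was 0.515 (permutation p = 0.0244, adjusted p = 0.0427) with a rho of 0.325 (permutation p = 0.189, adjusted p = 0.283), and r was 0.392 without the 2 mice. With the sample channel alone, r was 0.441 for C3, 0.495 for C4 and 0.436 for C4bp (adjusted permutation p = 0.127, 0.123 and 0.127). In that channel without the 2 mice, r was 0.246 for C3, 0.0529 for C4 and 0.362 for C4bp. Alb gave r = -0.526 (permutation p = 0.0223, adjusted p = 0.0426) and rho = -0.29 (permutation p = 0.243, adjusted p = 0.34). This value rests on those 2 mice, since r was 0.106 without them, and vehicle mouse 5 was saturated in all 3 spots of both channels, so that no relation is read for Alb.

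**Figure D4:**
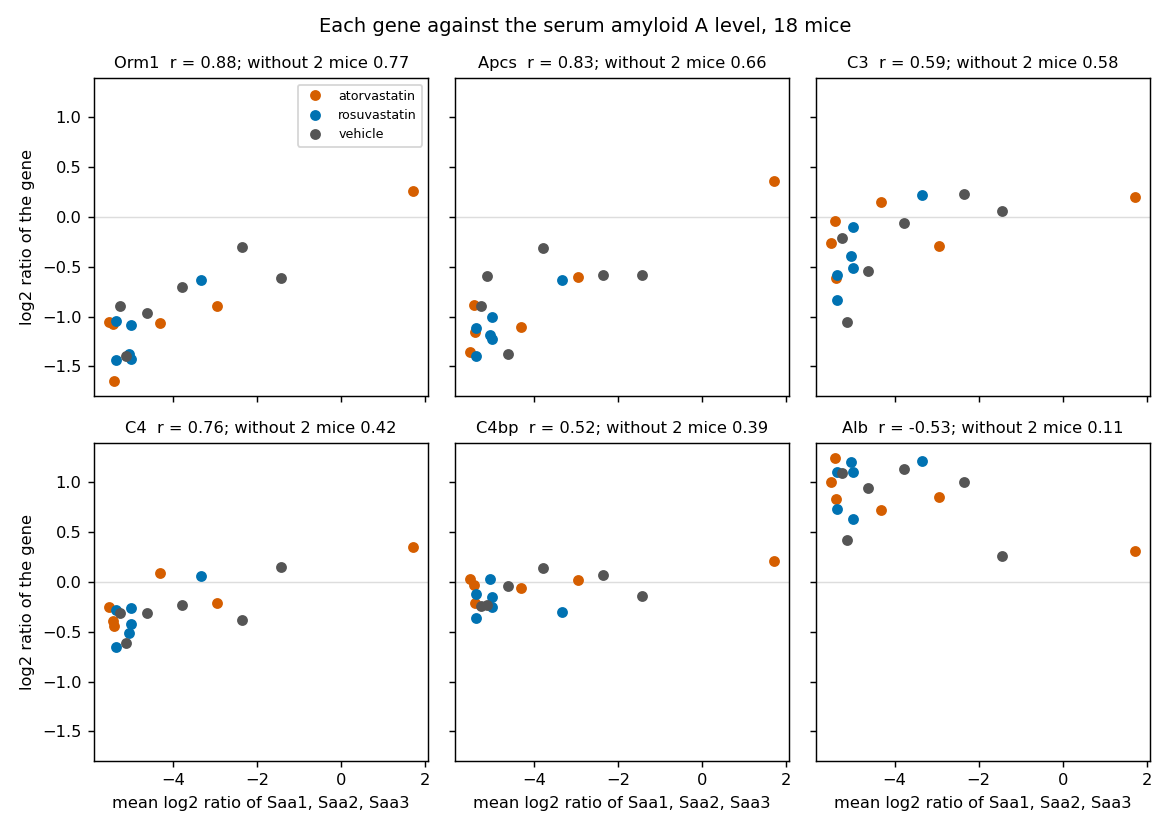
Log2 ratio of each of the 6 genes (y axis) against the mean log2 ratio of Saa1, Saa2 and Saa3 (x axis), 1 point per mouse coloured by group, with Pearson's r over 18 mice and without the 2 mice farthest from the median of x in each title. Orm1 (r = 0.875) and Apcs (r = 0.835) climb along the x axis, with atorvastatin mouse 4 alone at the right end (1.72), and the value for Alb (r = -0.526), whose reference was saturated throughout, is set by the 2 rightmost mice.

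Among the members themselves, Orm1 and C3 varied together with r = 0.742 (permutation p = 0.00036, adjusted p = 0.00215) and rho = 0.742 (permutation p = 6e-04, adjusted p = 0.0126). Leaving out the 2 mice farthest from the median of Orm1, r was 0.722 (adjusted p = 0.0192), but with the sample channel alone it was 0.55 (adjusted p = 0.0765). C3 and C4 were related with r = 0.664 (permutation p = 0.00244, adjusted p = 0.00854) and rho = 0.581 (permutation p = 0.0127, adjusted p = 0.0341), and with r = 0.671 (adjusted p = 0.0259) without the 2 mice farthest from the median of C3. With the sample channel alone, r of C3 and C4 was 0.475 (adjusted p = 0.127). Orm1 and Apcs had r = 0.76 (permutation p = 0.00041, adjusted p = 0.00215) and rho = 0.583 (permutation p = 0.013, adjusted p = 0.0341), and r was 0.507 (adjusted p = 0.138) without 2 mice. The weakest relation was that of C4bp with Alb, with r = -0.013 (permutation p = 0.957, adjusted p = 0.957) and rho = 0.065 (permutation p = 0.799, adjusted p = 0.839). Of the 21 relations, 12 had an adjusted p of r under 0.05, and 4 without the 2 mice farthest in each: Orm1 and Apcs with serum amyloid A, Orm1 with C3, and C3 with C4. Within the 11 arrays 1 of 21 passed, that of Orm1 with serum amyloid A.

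The probes of other names most like each member over the 18 mice are given by Pearson's r, as a description. They are the extremes of 187 values per member. All include atorvastatin mouse 4 and vehicle mouse 5, and how far they rest on those mice was not tested. For Orm1 and for Apcs they were Saa3 (0.88 and 0.842) and Saa1 (0.872 and 0.834). For C3 they were C5, the complement component cleaved next in the cascade (0.859), and the nuclear receptor corepressor Ncor1 (0.78). For C4 they were Serping1, the C1 inhibitor (0.819), and Hpxn, listed for haemopexin, a haem-binding acute-phase protein (0.774). C4bp was most like the transcription factor Sp1 (0.66) and the nuclear receptor Nr2f2 (0.612), and Alb most like the uptake transporter Slco1b2 (0.725) and the export pump Abcb1b (0.677). The SD of C4bp between mice (0.146) was close to that between its spots (0.143), so that no relation is read from its values here. At the other end, the lowest r belonged to Scp2, a sterol carrier, for Apcs (-0.653), Insig2, which retains SREBP in the endoplasmic reticulum, for C4 (-0.716), Cyp2a12, a cytochrome P450, for C4bp (-0.639) and Scarb2, a lysosomal membrane protein, for Alb (-0.768). The reference of Alb was saturated on every array, so that no relation is read from its values here either.

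Other genes of the acute-phase programme on the array were read beside the members. Of 19 other positive acute-phase and signalling probes, 17 were kept for testing, being above background on at least 6 arrays. Of these 17, 0 passed an adjusted p of 0.05 in any of the 3 comparisons. At limma's unadjusted p under 0.05, 2 were higher with rosuvastatin than vehicle, Icam1 (0.18) and Nfkbia (0.31), beside 6.38% of all probes. With atorvastatin 1 was higher, Icam1 (0.16), beside 8.51%, and 0 were lower in either. The median differences of the 17 were 0.10 with atorvastatin and -0.06 with rosuvastatin against vehicle, and 0.12 between atorvastatin and rosuvastatin. All 6 of the other negative acute-phase probes were kept for testing, and 0 passed that adjusted p in any comparison, with medians of -0.03, 0.08 and -0.12 in the same order. Apart from Saa1, Saa2 and Saa3, 7 of 14 positive probes correlated with their mean at r of 0.5 or above, beside 29 of 185 probes in all (15.7%). These were Hpxn (0.826), C5 (0.756), Stat3, the factor that carries the interleukin 6 signal (0.7), C2 (0.697), Fgb, a fibrinogen chain (0.668), Crp (0.559) and Cebpa (0.55). Such values include atorvastatin mouse 4 and vehicle mouse 5, and how far they rest on those mice was not tested. Of the negative probes, Apoa1, the main protein of HDL, had the lowest r (-0.528), and 1 of 6 lay at -0.5 or below, beside 12 of 185 probes in all.

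The level of the members relative to the reference was taken last. With a reference mixed in equal parts from these 18 RNAs, the linear ratios of a gene would average about 1, and over the 188 probes the median of these means was 1 and the central range (5th to 95th percentile) 0.819 to 1.21. Orm1 averaged 0.54 and Apcs 0.577, the lowest of all probes after Saa2 (0.232), Saa1 (0.235) and Saa3 (0.29), and Hpxn was next at 0.658. C4 averaged 0.851, C3 0.864 and C4bp 0.944, within the central range. The reference of Orm1 reached the ceiling on 11 arrays and that of C3 on 10, so that the means of these genes are not exact levels. The calculated mean for Alb was 1.88 against a reference at the ceiling on every array, so that this value is not a measured level and its place among the probes is not read. Even the highest mouse reached only 1.2 times the reference for Orm1 and 1.28 times for Apcs. How much RNA each mouse gave to the reference is not given in the sources used here, dye and source cannot be told apart without swapped dyes, and the part of either in these means was not tested.

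**Figure D5:**
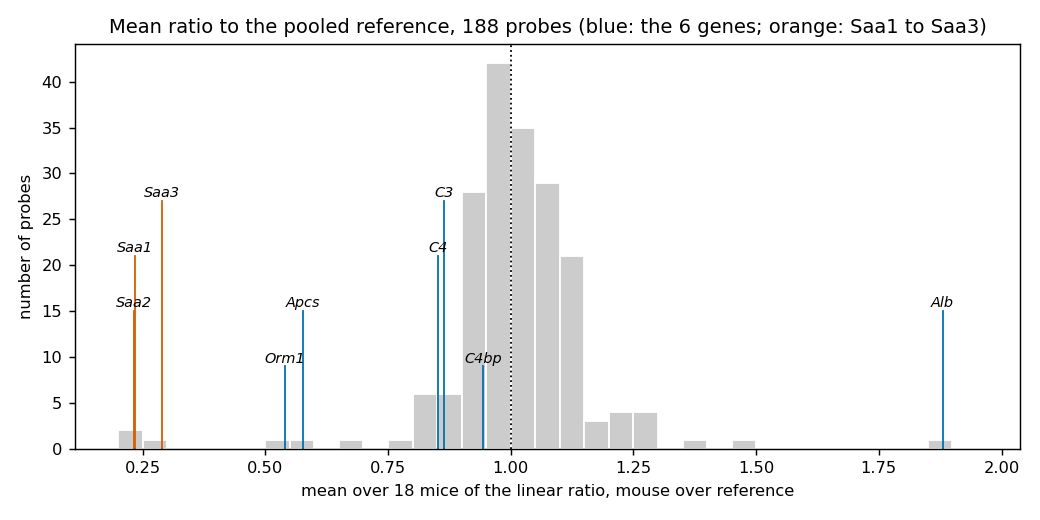
Histogram of the mean linear ratio of mouse over reference over 18 mice for 188 probes, with the 6 genes (blue) and Saa1, Saa2 and Saa3 (orange) marked and the dotted line at 1. Most probes lie between 0.819 and 1.21, while Orm1 (0.54) and Apcs (0.577) lie beside the serum amyloid A genes at the low end and Alb at the high end (1.88) has a saturated reference.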

How the data were processed

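The deposited scanner files hold, per the file headers, the median intensity and local background of each spot in both channels, on a linear scale and not normalised. The authors also deposited a value table of log2 ratios, with normalisation and centring not given in the sources used here. The intensities were corrected with normexp (offset 50) and normalised by loess within arrays, with control spots at weight 0, in limma 3.58.1 under R 4.3.3. Spots of a probe were averaged. Probes were kept where the mouse RNA exceeded the background by 2 background SDs on at least 6 of 18 arrays. Groups were compared by limma over all 3 groups with Benjamini-Hochberg adjustment over the 188 kept probes, two-sided, at 0.05, and the scripts were tested on simulated data. Permutation tests of correlations used 100000 resamples. A probe was saturated at 65535. The background ring covered 197 pixels on 11 arrays (3 atorvastatin, 4 rosuvastatin, 4 vehicle) and 212 to 228 on the others. The number of arrays limits the precision. The genes named are the 6 members, the 2 probes most like and the 1 least like each, the serum amyloid A genes and listed acute-phase genes that bear on a count. The least like probe is not reported here for 2 of the members. The members, lists and motifs were chosen with earlier results of these data known. The labels do not say whether a replicate number marks a shared animal, day or batch, and the mice were not paired in the main tests. Of 18 correlations of deviations between same-numbered mice, 10 exceeded 0.1 and the lowest was -0.603. Pairing was to be used only if all exceeded 0.1. A weak pairing could also miss that bar, so that these values do not settle whether the mice were paired. The paper at hand describes another experiment on this array type and served for style only.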

Additional observations from a re-analysis of the deposited data

Results flagged for a closer look

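Within the atorvastatin group the mean log2 ratio of Saa1, Saa2 and Saa3 was 1.72 in mouse 4, so far above the other 5 mice that the gap exceeded Dixon's 95% limit, and the same mouse was the highest of its group for Orm1, Apcs, C3, C4 and C4bp without passing that limit. Within the rosuvastatin group the mean was -3.34 in mouse 3, again past the limit, and that mouse was the highest of its group for Orm1, Apcs, C3, C4 and Alb but 17th of 18 mice for C4bp. Chance flags about 1 in 20 groups, and 21 groups were examined.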

How the results depend on the processing

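Under the alternatives, 614 of 642 values of the 6 genes kept their direction and their side of the threshold and 28 did not, of which 1 was 0 and the others had the opposite sign; none passed the threshold, and the lowest adjusted p was 0.282. In atorvastatin against vehicle, Alb was -0.022 with median centring in place of loess, -0.125 with a shift of each array to its spike-in controls and -0.0172 with array weights. With saturated spots left out, Orm1 was 0.173 in atorvastatin against vehicle and C3 was 0.069 in rosuvastatin against vehicle. All spots of Orm1 were then missing on 10 arrays and all spots of C3 on 6. With the sample channel alone at a common 75th percentile, Orm1 was 0.0195 and Apcs 0.125 in atorvastatin against vehicle, C3 0.0856 and C4 0.127 in rosuvastatin against vehicle, and C3 -0.0655 in atorvastatin against rosuvastatin. With that channel quantile normalised, Orm1 was 0.0308, Apcs 0.12, C3 -0.188 and C4bp -0.0633 in atorvastatin against vehicle, C4 0.0744 in rosuvastatin against vehicle, and Alb 0 in atorvastatin against rosuvastatin. Without atorvastatin mouse 4 and vehicle mouse 5, chosen after seeing the data, C4 was 0.0299 in rosuvastatin against vehicle. Leaving out 1 mouse at a time gave, in atorvastatin against vehicle, -0.337 to 0.0447 for Orm1, -0.296 to 0.047 for Apcs, -0.0381 to 0.218 for C3 and -0.0884 to 0.125 for Alb, and -0.139 to 0.0299 for C4 in rosuvastatin against vehicle. The cause of these changes was not tested. Correlations with an adjusted p under 0.05 numbered 12 of 21, and 1 within the arrays of the same ring, 3 with the sample channel alone, 3 without the 2 mice named above and 4 without the 2 mice farthest in each relation.

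With the replicate block, 2 probes passed the adjusted threshold in atorvastatin against vehicle, against 0 without it, and 0 passed in the other 2 comparisons; no member was called with or without it, and Orm1 was -0.355 and Apcs -0.369 in rosuvastatin against vehicle under the block. Over all the alternatives, counts of probes at an unadjusted p under 0.05 ran between 0 and 33 in atorvastatin against vehicle (16 in the main analysis), between 3 and 29 in rosuvastatin against vehicle (12) and between 0 and 16 in atorvastatin against rosuvastatin (10). Without vehicle mouse 5 they were 31 in atorvastatin against vehicle and 29 in rosuvastatin against vehicle. Alb had no value with saturated spots left out or in the deposited value table, and that table held values of Orm1 for 8 mice and of C3 for 10.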
